A study of Mus musculus with 4 samples.

Results

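The genes described here are those of the calcium pumps and calcium buffers of the sarcoplasmic reticulum, the internal calcium store of muscle. They were chosen by symbol: Atp2a1, Atp2a2, Atp2a3, Casq1, Casq2, Sln, Hrc, Srl, Jsrp1 and Pvalb, 10 of the 49585 genes in the count files. The assay was mRNA sequencing with strand information in C2C12, a C3H mouse myoblast line whose cells fuse into myotubes at low serum. The 2 C/EBPβ-overexpressing libraries came from cells transduced with a retrovirus carrying C/EBPβ, a leucine zipper transcription factor, and the 2 empty-vector libraries from cells transduced with the vector alone. Both groups underwent 7 days of G418 selection as pools, 2 further days of growth and 2 days of differentiation in 2% horse serum, so both were differentiating pools, and they differ by the C/EBPβ insert. No source used here states which species the C/EBPβ insert came from. Separate cultures within a group are not stated either, so the p-values rest on a spread between libraries that may be technical.

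In skeletal muscle, calcium leaves the sarcoplasmic reticulum through the ryanodine receptor to start a contraction and is pumped back by the SERCA ATPases to end it. SERCA activity is held back by small membrane peptides such as sarcolipin, and the pumped calcium is stored in the lumen by calsequestrin and other acidic proteins. Many of these genes come on as myoblasts differentiate. In muscle, Atp2a1 and Casq1 are typical of fast fibres, and Atp2a2 and Casq2 of slow fibres and heart. In a bulk library, fewer differentiated cells and less RNA per cell cannot be told apart.

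The libraries held 50493417 and 36461091 assigned fragments in the overexpressing cells, against 45448661 and 51537847 in the empty-vector cells. Cebpb itself stood at 502 and 442 CPM (counts per 1000000 fragments of the scaled library) in the overexpressing libraries, against 42.7 and 41.3 CPM in the empty-vector libraries. Markers of differentiated skeletal muscle were present in every library and lower in the overexpressing ones for 10 of 10 genes (9 in DESeq2; median log2 change -1.49), where 20.9% of all genes tested were lower. Their summed level was 6902 and 11284 CPM in the overexpressing libraries, against 24911 and 27694 CPM in the empty-vector libraries. Acta1, skeletal actin, and Myh3, embryonic myosin, had the highest CPM of them averaged over the 4 libraries, the measure by which the most abundant genes of each marker list were taken. Among 8 heart muscle markers, Nppa, Myl7 and Tbx20 had too few fragments to be tested, and of the other 5, with Ankrd1 and Myh6 the most abundant, 2 fell and 1 rose.

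Promoter sequence was available for 6 of the 10 genes, all of which moved. Those of 5 are shown, which differ in the motif that myogenic factors bind, and those of Pvalb are not shown. The E-box, CANNTG, is the site of MyoD and its relatives, and its CAGCTG form stood in the 250 bases before the start site of Atp2a1, Casq1 and Hrc. Each run below, from RefSeq on GRCm38.p6, is 5′ to 3′ in the direction of transcription with E-boxes in capitals. The windows are chr7:126463074-126463323 (minus strand) for Atp2a1, chr1:172219896-172220145 (minus) for Casq1, chr7:45335019-45335268 (plus) for Hrc, chr3:102086165-102086414 (plus) for Casq2 and chr11:72960919-72961168 (plus) for Atp2a3.
Atp2a1: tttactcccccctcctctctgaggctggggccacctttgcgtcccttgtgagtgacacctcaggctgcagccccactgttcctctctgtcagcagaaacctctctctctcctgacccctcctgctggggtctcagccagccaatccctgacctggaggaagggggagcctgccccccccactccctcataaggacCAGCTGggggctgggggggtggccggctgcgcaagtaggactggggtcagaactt
Casq1: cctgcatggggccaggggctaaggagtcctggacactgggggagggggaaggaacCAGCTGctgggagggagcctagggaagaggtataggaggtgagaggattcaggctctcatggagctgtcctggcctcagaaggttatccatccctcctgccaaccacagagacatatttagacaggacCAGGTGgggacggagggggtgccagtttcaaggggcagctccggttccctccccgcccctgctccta
Hrc: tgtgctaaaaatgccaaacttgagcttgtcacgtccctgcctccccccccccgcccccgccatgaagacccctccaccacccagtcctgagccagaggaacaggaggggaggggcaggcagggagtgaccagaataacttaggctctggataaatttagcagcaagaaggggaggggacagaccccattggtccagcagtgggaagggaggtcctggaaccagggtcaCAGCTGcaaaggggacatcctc
Casq2: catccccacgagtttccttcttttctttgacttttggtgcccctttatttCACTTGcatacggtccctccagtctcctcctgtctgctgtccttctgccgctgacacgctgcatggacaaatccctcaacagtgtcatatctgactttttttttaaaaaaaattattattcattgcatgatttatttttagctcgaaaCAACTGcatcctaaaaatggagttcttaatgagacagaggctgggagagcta
Atp2a3: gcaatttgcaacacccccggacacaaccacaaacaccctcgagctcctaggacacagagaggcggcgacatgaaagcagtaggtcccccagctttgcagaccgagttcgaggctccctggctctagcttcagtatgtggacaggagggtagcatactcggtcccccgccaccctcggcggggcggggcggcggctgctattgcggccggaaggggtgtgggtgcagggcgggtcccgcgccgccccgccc
The CAGCTG lies with its first base at -55 from the start site in Atp2a1, -195 in Casq1 and -22 in Hrc. Casq1 holds another E-box, CAGGTG, at -67, and Casq2 holds CACTTG at -200 and CAACTG at -52. The Atp2a3 window, from the gene that rose, holds no E-box, and neither does 1 of the 2 windows of Pvalb, which fell. Among all 32851 promoter windows of the same length, 66.2% held an E-box and 13.0% held CAGCTG, and among the 7 windows of these genes (Pvalb has 2) 5 and 3 did. The MEF2 motif was found in Casq2 and in a Pvalb window, against 2.92% of all windows. The C/EBP-type sequence TTGCNNAA, searched on both strands, was in none of the 7 windows and in 9.56% of all windows. These matches describe letters in short windows, and binding was not measured.

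Levels between genes were compared per length, as FPKM (CPM per kilobase of annotated exon). In the overexpressing cells the order of mean FPKM was Atp2a1, Casq2, Atp2a2, Jsrp1, Srl, Hrc, Casq1, Atp2a3, Pvalb and Sln. In the empty-vector cells it was Casq2, Atp2a1, Srl, Atp2a2, Jsrp1, Hrc, Casq1, Pvalb, Atp2a3 and Sln. In the overexpressing cells the neighbours Atp2a1 and Casq2 averaged 184 ± 67.4 and 169 ± 78.7 FPKM (SD, n = 2) and lay within each other's spread. There Srl (65.8 ± 29.9 FPKM) and Hrc (46.8 ± 19.1 FPKM) did so too. The spread of Casq2 reached the mean of Atp2a2 (127 ± 24.2 FPKM), but not the reverse. Likewise the spread of Srl reached the mean of Jsrp1 (83.6 ± 10.5 FPKM), but not the reverse. At the low end, the spread of Pvalb (0.190 ± 0.139 FPKM) reached the mean of Sln (0.0747 ± 0.0176 FPKM), but not the reverse. Casq2, the calsequestrin of heart and slow muscle, headed the empty-vector order at 522 ± 29.5 FPKM (SD, n = 2), above Atp2a1 at 374 ± 19.7 FPKM. There Jsrp1 and Hrc stood at 131 ± 0.737 and 125 ± 6.24 FPKM, and only the spread of Hrc reached the other mean. The range of levels was wide, since Sln was at most 0.102 FPKM in any library.

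**Figure D1:**
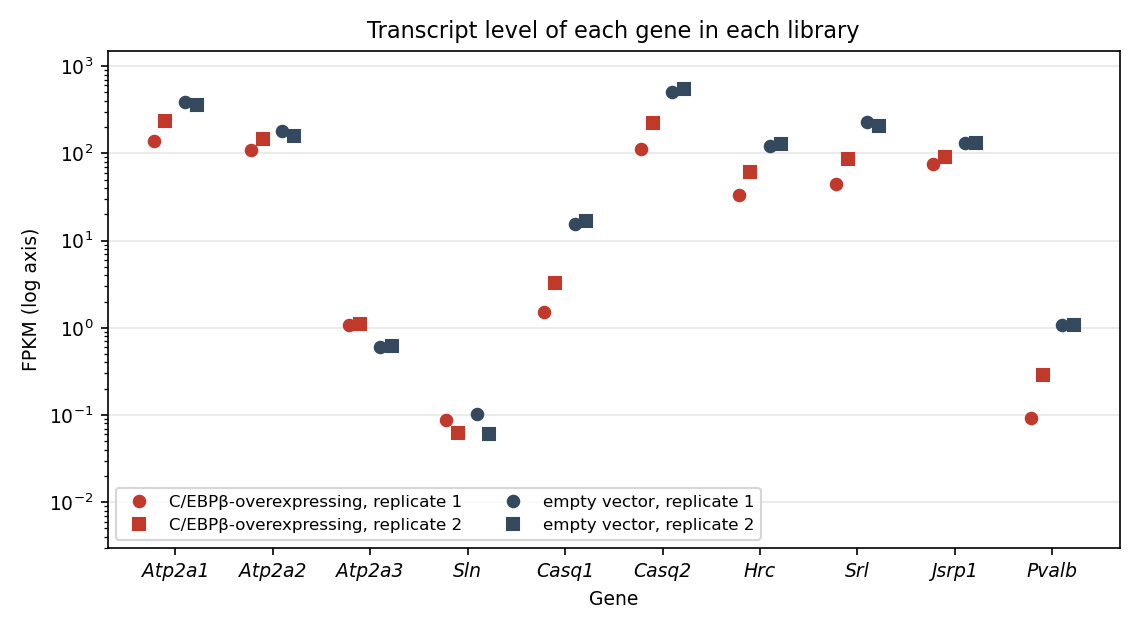
FPKM of each gene (log axis) in every library, with C/EBPβ-overexpressing libraries in red left of empty-vector libraries in dark blue, circles for replicate 1 and squares for replicate 2. Both red points lie below both blue points for 8 genes, above them for Atp2a3, and among them for Sln.

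Of the 10 genes, 9 had enough fragments to be tested across all genes, and of these 7 fell and 1 rose in the overexpressing cells. Over all 15886 genes tested, 20.9% fell and 22.3% rose in the same test, edgeR's quasi-likelihood test with Benjamini-Hochberg adjustment at 0.05. The median log2 fold change of the 9 was -1.42, against 0.01 over all genes tested. Both overexpressing libraries stood below both empty-vector libraries for 8 of the 9, a state found for 36.7% of all genes tested. Of the 7 that fell, 6 fell at least 2-fold, as did 7.5% of all genes tested. Pvalb passed the filter on low counts through the empty-vector libraries, where it was high, and Sln was not tested. Without empty-vector replicate 1, 2 of the genes fell (14.6% of all genes tested then fell), and without empty-vector replicate 2 again 2 (11.3%): these were Jsrp1 and Pvalb, and Atp2a3 rose in both fits. In DESeq2, 8 fell, Atp2a2 included, where 18.6% of all genes tested fell.

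**Figure D2:**
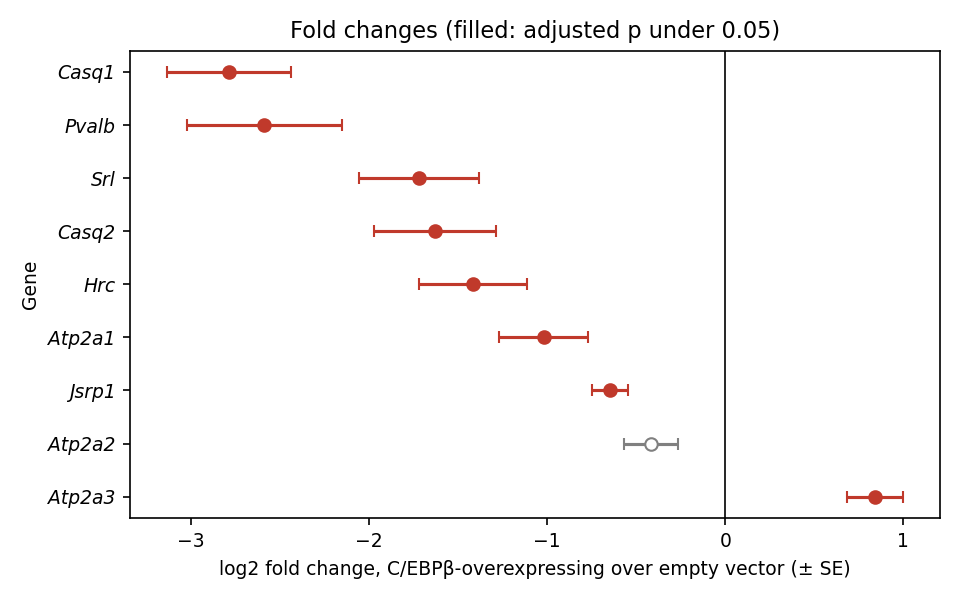
Log2 fold change (C/EBPβ-overexpressing over empty vector) of the 9 genes tested, with bars of ± 1 SE; filled points have an adjusted p under 0.05. The values run from -2.79 for Casq1 to 0.84 for Atp2a3, and Atp2a2 at -0.42 is the open point.

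Among the pumps, Atp2a1 fell 2.03-fold. Atp2a1, the SERCA of fast fibres (ENSMUSG00000030730, chromosome 7 from 126445858 to 126463108 on the minus strand of GRCm38), had 476 and 807 CPM in the overexpressing libraries, against 1349.5 and 1253 CPM in the empty-vector libraries. The groups did not overlap, and the overexpressing libraries differed from each other more than the empty-vector libraries did. The log2 fold change was -1.02 (SE 0.25, adjusted p = 0.0203). The adjusted p was 0.135 without empty-vector replicate 1 and 0.122 without replicate 2, while the log2 fold changes were -0.97 and -1.07.

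Atp2a2, the SERCA of slow fibres and heart that in another splice form serves most cell types, did not pass the test. It lies on chromosome 5 from 122453513 to 122502225 (ENSMUSG00000029467), and had 669 and 877 CPM in the overexpressing libraries, against 1100.3 and 962 CPM in the empty-vector libraries. Both overexpressing libraries were lower, and the log2 change of -0.42 (SE 0.15) had an adjusted p of 0.0576. It passed as lower in DESeq2 (adjusted p = 0.0185). The log2 change was -0.23 without overexpressing replicate 1 and -0.64 without overexpressing replicate 2. It was -0.32 without empty-vector replicate 1 and -0.51 without empty-vector replicate 2. The counts are per gene, so its muscle and general splice forms were not separated.

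Atp2a3, the SERCA of blood, endothelial and other non-muscle cells, rose, at a low level. On chromosome 11 from 72961169 to 72993044 (ENSMUSG00000020788), it had 297 and 212 fragments, or 5.69 and 5.80 CPM, in the overexpressing libraries, against 141 and 164 fragments, or 3.16 and 3.24 CPM, in the empty-vector libraries. The replicates of each group were close together and the groups far apart by comparison, and the 1.79-fold rise (log2 scale 0.84, SE 0.16) had an adjusted p of 0.00369. Both overexpressing libraries lay above both empty-vector libraries, as for 38.4% of all genes tested. Its call held without each of the 4 libraries in turn. Of 8 blood cell and platelet markers, 3 could be tested, and Ptprc, the pan-leukocyte marker, had at most 1 fragment in any library. Their summed level was 6.13 and 6.73 CPM in the overexpressing libraries, against 7.20 and 7.12 CPM in the empty-vector libraries, with Gata1 at 0 throughout. The most abundant were Itga2b, the platelet integrin, with a log2 fold change of 0.29 (adjusted p = 0.212), and Cd53, a leukocyte tetraspanin, which fell (-1.26, adjusted p = 0.00263), while Csf1r rose (1.21). The 6 endothelial markers summed to 0.842 and 0.492 CPM, against 1.37 and 1.82 CPM, with Emcn at 0, and the most abundant of them, Cldn5 and Tek, passed as lower, having come through the low-count filter by the empty-vector libraries, where they were high. The calls of Csf1r and Tek were lost in DESeq2 and without either empty-vector replicate or overexpressing replicate 2, and the part of these cell types in the rise of Atp2a3 was not tested.

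Taken per length, the 3 SERCA transcripts summed to 248 and 377 FPKM in the overexpressing libraries, against 570 and 519 FPKM in the empty-vector libraries, a mean of 57.4% of the empty-vector level. Atp2a1 made up 55.2% and 61.5% of that sum in the overexpressing libraries, against 68.1% and 69.4% in the empty-vector libraries. Its share was thus lower in both overexpressing libraries, by 10.4 percentage points on average, and that of Atp2a2 was higher, at 44.4% and 38.2%, against 31.8% and 30.5%. Atp2a3 gave 0.434% and 0.291% of the sum in the overexpressing libraries, against 0.105% and 0.118% in the empty-vector libraries. In CPM, which is not divided by length, Atp2a2 stood above Atp2a1 in both overexpressing libraries, at 669 and 877 against 476 and 807. It stood below Atp2a1 in both empty-vector libraries, at 1100.3 and 962 against 1349.5 and 1253. With 2 libraries on each side, the smallest 2-sided p of an exact permutation test is 0.333, so these shares were not tested.

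**Figure D3:**
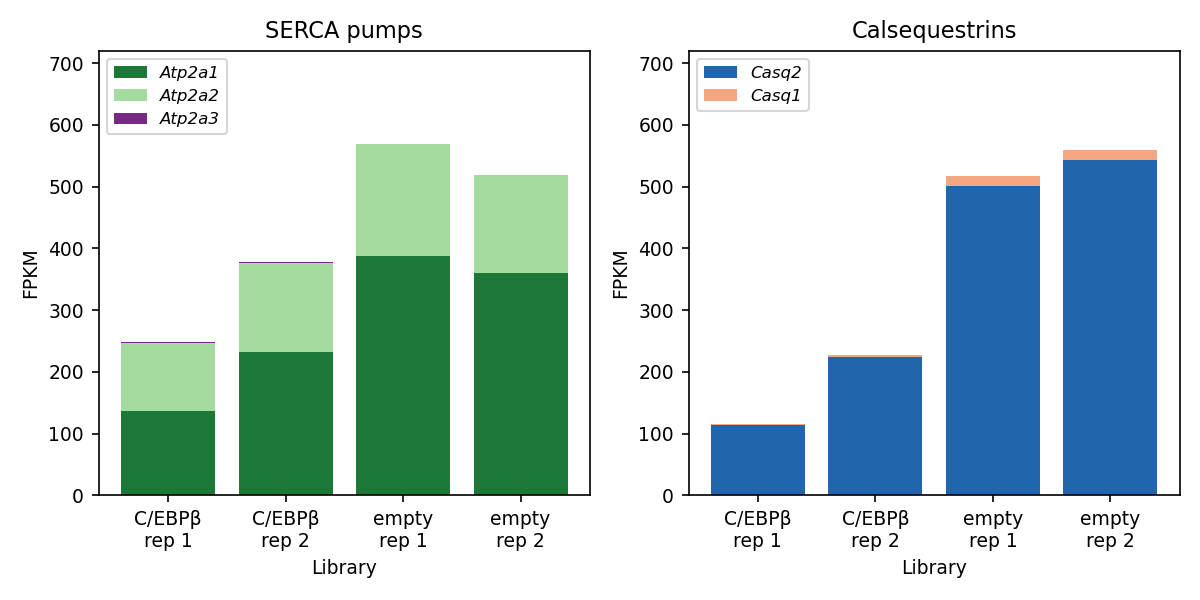
FPKM per library, stacked by gene, for the SERCA pumps (left) and the calsequestrins (right), with the C/EBPβ-overexpressing libraries left of the empty-vector ones. Pump transcripts sum to 248 and 377 FPKM in the overexpressing libraries against 570 and 519, and calsequestrin transcripts to 115 and 228 FPKM against 517 and 560.

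Sln, which encodes the SERCA inhibitor sarcolipin, was close to undetected. It had 6 and 3 fragments in the overexpressing libraries, against 6 and 4 in the empty-vector libraries, and lies on chromosome 9 from 53850164 to 53854560 (ENSMUSG00000042045). The ratio of the pooled fragments was 0.964, with a 95% exact binomial interval from 0.347 to 2.64 that covers counting error only. A difference inside that interval was not detectable at this depth. Among the other regulators of SERCA, Mrln, the gene of the inhibitory peptide myoregulin, fell, with 6.09 and 6.76 CPM in the overexpressing libraries, against 10.4 and 11.8 CPM in the empty-vector libraries (log2 fold change -0.80, SE 0.14, adjusted p = 0.00238). Pln, the phospholamban gene, had no fragment in either overexpressing library, against 1 and 2 in the empty-vector libraries. Hax1, a partner of phospholamban (-0.16), Tmx1, a redox protein of the reticulum (0.10), and S100a1, a calcium sensor that acts on SERCA (0.07), did not pass. Of the 4 tested from 6 listed, 1 fell and 0 rose, beside 20.9% and 22.3% of all genes tested, and the median was -0.04. The counts were the same in DESeq2, in limma-voom and at an unadjusted p under 0.05. Hax1 shares 28.4% of its 50-base windows with other annotated genes.

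Both calsequestrins fell. Casq1, the calsequestrin of fast fibres (ENSMUSG00000007122, chromosome 1 from 172209894 to 172219868), had 2.99 and 6.32 CPM in the overexpressing libraries, against 30.5 and 32.4 CPM in the empty-vector libraries. It fell 6.90-fold (log2 fold change -2.79, SE 0.35, adjusted p = 0.00385). Casq2 (ENSMUSG00000027861, chromosome 3 from 102086415 to 102146514) had 310.1 and 614 CPM in the overexpressing libraries, against 1372 and 1486 CPM in the empty-vector libraries. It fell 3.09-fold (-1.63 on the log2 scale, SE 0.34, adjusted p = 0.0188). For neither gene did the groups overlap. Without empty-vector replicates 1 and 2 in turn, the adjusted p was 0.0786 and 0.0739 for Casq1 and 0.153 and 0.171 for Casq2.

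Casq2 was the main calsequestrin in every library. Per length, Casq1 gave 1.33% and 1.42% of calsequestrin transcripts in the overexpressing libraries, against 3.02% and 2.96% in the empty-vector libraries. The summed calsequestrin level was 31.8% of the empty-vector level on average, lower than the 57.4% for the pumps. The ratio of summed calsequestrin to summed SERCA transcripts was accordingly 0.463 and 0.603 in the overexpressing libraries, against 0.908 and 1.08 in the empty-vector libraries, without overlap and, with 2 libraries a group, without a test.

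The other luminal and membrane proteins of the store fell as well. Srl, sarcalumenin, a luminal calcium-binding glycoprotein that associates with SERCA (ENSMUSG00000022519, chromosome 16 from 4480216 to 4541816), had 238 and 463 CPM in the overexpressing libraries, against 1217 and 1091 CPM in the empty-vector libraries (log2 fold change -1.72, SE 0.34, adjusted p = 0.0155). Hrc, the histidine-rich calcium-binding protein that links SERCA to triadin (ENSMUSG00000038239, chromosome 7 from 45335290 to 45338974), had 85.5 and 155 CPM, against 309 and 332 CPM (-1.42, SE 0.30, adjusted p = 0.0224). Both genes had non-overlapping groups and an overexpressing replicate 2 well above replicate 1. Without empty-vector replicates 1 and 2 in turn the adjusted p was 0.161 and 0.135 for Srl and 0.202 and 0.213 for Hrc.

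Jsrp1, a membrane protein of the junctional reticulum that binds calsequestrin and the voltage sensor (ENSMUSG00000020216, chromosome 10 from 80808496 to 80813498), changed least among the genes that fell. It had 101 and 121 CPM in the overexpressing libraries, against 173 and 175 CPM in the empty-vector libraries, a 1.56-fold fall (log2 fold change -0.64, SE 0.10, adjusted p = 0.00168). Pvalb, parvalbumin, the cytosolic buffer that speeds relaxation of fast fibres (ENSMUSG00000005716, chromosome 15 from 78191114 to 78206400), was at the low end, with 5 and 11 fragments in the overexpressing libraries, against 50 and 56 in the empty-vector libraries. That was a 6.01-fold fall (log2 fold change -2.59, SE 0.43, adjusted p = 0.00228), on few fragments. It was -1.88 without overexpressing replicate 1 and -3.52 without replicate 2. The calls of both genes held without each library in turn.

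Within the overexpressing group, replicate 2 was higher than replicate 1 for all 9 genes tested, against 49.4% of all genes tested. The log2 difference between these replicates was 0.99 for Casq2, 0.97 for Casq1, 0.96 for Srl, 0.85 for Hrc and 0.76 for Atp2a1, but 0.26 for Jsrp1 and 0.03 for Atp2a3. The 10 differentiated muscle markers were likewise all higher in overexpressing replicate 2, with a median of 0.76, and the log2 difference of Cebpb was -0.18. The part of differentiation state in the fold changes was not tested. With overexpressing replicate 1 left out the log2 fold change of Atp2a1 was -0.69 and that of Casq2 -1.22, and with replicate 2 left out -1.47 and -2.22, so the direction stayed and the size moved with the library.

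In the authors' deposited table all 10 genes are listed, 8 of them lower and 1 higher at an adjusted p under 0.05, where 20.9% of its 18378 rows are lower. Atp2a2 is among the lower ones in the authors' deposited table, with a log2 fold change of -0.48 and an adjusted p of 0.00137, and Sln is the gene that did not pass (-0.10, adjusted p = 0.942). The largest difference of a log2 fold change between the authors' deposited table and the values above was 0.347. The mean signal in the authors' deposited table is 0.535 times the mean count of the 4 libraries for Casq1 and 0.801 times for Atp2a2, so it is not a mean of these 4 libraries under 1 scale, and the 2 comparisons may rest on unlike libraries.

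By rule, the 5 protein-coding genes with the library profile nearest to that of Atp2a1 were Ankrd23, Serpinb7, Ocln, Wnt10a and Ppfia4. Nearness was the Euclidean distance of centred log2 CPM over the 4 libraries, among 11752 genes, and ran from 0.0737 for Ankrd23 to 0.130 for Ppfia4. Ankrd23 had 2.18 and 3.80 CPM in the overexpressing libraries, against 6.89 and 6.62 CPM in the empty-vector libraries. Of the genes of the pump and buffer group, Hrc was nearest, at rank 314 with a distance of 0.437, and Casq1 stood at rank 9826. The values were not scaled, so a larger fall than that of Atp2a1 adds to the distance. The log2 fold change was -2.79 for Casq1 and -1.02 for Atp2a1. With 4 libraries, this describes profiles alone.

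The genes that release the stored calcium fell in large part too. Of 15 genes of the release channel, its voltage sensor and the triad, 11 fell and 0 rose, and the median log2 change was -0.92. Of all genes tested 20.9% fell. The counts were again 11 and 0 in DESeq2, in limma-voom and at an unadjusted p under 0.05, and 10 fell with the replicate block and without the low-count filter. Cacng1, a subunit of the voltage sensor (-1.03, SE 0.11, adjusted p = 0.000296), Jph2, a junctophilin that ties the membranes together (-0.98, SE 0.12), and Stac3, an adaptor of the voltage sensor (-0.89, SE 0.12), had the smallest p. Trdn, triadin, which anchors calsequestrin and was named after its value was seen, had a log2 fold change of -1.60. Without empty-vector replicates 1 and 2 in turn, 7 and 6 of the 15 fell.

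Of 12 genes for calcium-binding proteins of the general endoplasmic reticulum and the secretory path, 6 rose and 0 fell, with a median of 0.35. Among all genes tested, 22.3% rose. The other 6 did not pass, among them Canx, calnexin (-0.25), and Hspa5, the chaperone BiP (0.06), both named after their values were seen. Without overexpressing replicate 2, 1 of the 12 fell, and the counts were again 6 and 0 in DESeq2, in limma-voom and at an unadjusted p under 0.05. Rcn3, a reticulocalbin of the secretory path, had 261 and 241 CPM in the overexpressing libraries, against 79.7 and 65.7 CPM in the empty-vector libraries (log2 fold change 1.79, SE 0.11, adjusted p = 2.35e-05). Nucb2 and Nucb1, the nucleobindins, rose by 0.74 and 0.85. Calr, calreticulin, the main buffer of the store in non-muscle cells and named after its value was seen, had 1788 and 1931 CPM, against 1237 and 1255 CPM (0.58, SE 0.12, adjusted p = 0.00559), and lost its call without empty-vector replicate 1 or 2 (adjusted p = 0.0516 and 0.0523). Smooth muscle markers moved beside this group, and their part in it was not tested. Of the 5 tested from 6 listed, Smtn fell and 3 rose, all 3 named after their values were seen. The log2 fold changes of the 3 were 2.32 for Lmod1, 1.36 for Tagln and 4.35 for Cnn1. Cnn1 passed the low-count filter through the overexpressing libraries, with 7 fragments in each empty-vector library. The most abundant, Acta2, had a log2 fold change of -0.08. The 6 markers summed to 3203 and 3893 CPM in the overexpressing libraries, against 3602 and 3626 CPM in the empty-vector libraries. Of this, Acta2 gave 2760 and 3445 CPM, against 3273 and 3285 CPM.

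Of the 7 tested pumps and exchangers of other membranes, 4 rose and 2 fell, with a median of 0.28. Of all genes tested, 22.3% rose and 20.9% fell. Of the 4, Slc8a2, named after its value was seen, passed the low-count filter through the overexpressing libraries, where it was high. It had 19 and 10 fragments there, against 3 and 2 in the empty-vector libraries. In DESeq2, and with a filter of 1 CPM in 2 libraries, 3 rose. Atp2b4, a plasma membrane calcium pump, rose, with 123 and 120.3 CPM in the overexpressing libraries, against 77.7 and 73.6 CPM in the empty-vector libraries (log2 fold change 0.68, SE 0.08, adjusted p = 0.000363). Slc8a1, a sodium-calcium exchanger, rose by 1.59 (SE 0.19), whereas Atp2b1, another plasma membrane pump, and Slc8b1, the mitochondrial exchanger, had log2 fold changes of -0.62 and -0.50. Atp2b3 did not pass (-0.56, adjusted p = 0.196), and Atp2b2 had no fragment in any library.

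**Figure D4:**
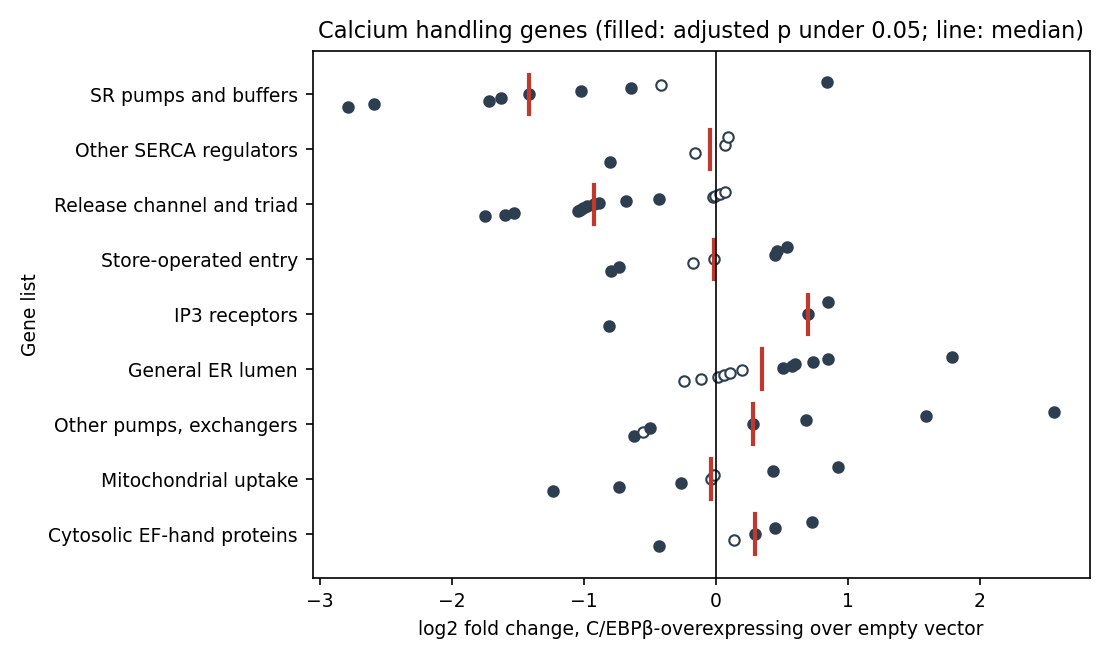
Log2 fold change (C/EBPβ-overexpressing over empty vector) of each tested gene in 9 lists of calcium handling genes, with filled points for an adjusted p under 0.05 and a red line at each list's median. The medians are -1.42 for the pumps and buffers of the sarcoplasmic reticulum and -0.92 for the release channel and triad. The median is 0.35 for the general reticulum and secretory path, the row marked General ER lumen.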

How the data were processed

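Stranded mRNA libraries were analysed, 2 of C/EBPβ-overexpressing and 2 of empty-vector C2C12 cells, grouped by their titles. What the authors deposited for each library are raw counts of fragments. Per the submitters' processing notes the aligner was HISAT2 2.0.4 on GRCm38. Per the file headers, featureCounts 1.5.1 (1.4.6 in the notes) took fragments on the reverse strand against GENCODE M12. None of the 10 genes shares exon bases with another gene on its strand, and at most 3.31% of their 50-base windows recur in other transcripts.

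From the counts, 15886 of 49585 genes passed edgeR's filterByExpr (minimum count 10, minimum total 15). They were compared with edgeR 4.0.16 (R 4.3.3): TMM scaling, glmQLFit with robust estimation, glmQLFTest, 2-sided, Benjamini-Hochberg over all genes tested. SEs come from the quasi-likelihood F. The script was tested on simulated counts; with dispersions that vary between genes as they do here, false calls exceeded the nominal rate, so calls near 0.05 are weak. DESeq2 1.42.0 and limma-voom (limma 3.58.1) were alternatives.

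The authors' comparison table gives per gene, as its column names say, a mean signal, a log2 fold change with SE, a test score and raw and adjusted p-values, all as deposited. Which libraries entered it is not stated.

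The genes and the lists were chosen with earlier results of these data known. Named by rule were the 10 genes, Cebpb, in each list the 3 smallest p and small groups of exceptions, the 2 most abundant of each marker list, and the 5 nearest to Atp2a1. A few genes that the rule names are not reported here.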

Additional observations from a re-analysis of the deposited data

How the results depend on the processing

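All 9 tested genes kept their direction under the 12 alternatives run (another test, scaling, filter or dispersion, a replicate block, and each library left out). Without the low-count filter Casq2 (-1.64, adjusted p = 0.179), Hrc (-1.43, 0.185) and Srl (-1.73, 0.159) did not pass, and Atp2a2 passed (-0.43), as it did in DESeq2 (-0.42). Leaving out each library in turn gave log2 fold changes of -1.47 to -0.69 for Atp2a1, -0.64 to -0.23 for Atp2a2, -3.41 to -2.31 for Casq1, -2.22 to -1.22 for Casq2, -1.93 to -1.05 for Hrc, -3.52 to -1.88 for Pvalb and -2.30 to -1.32 for Srl. The same fits called 3 to 9 of the 10 genes, 2 to 8 of them lower, 27 to 42 genes of the other calcium lists (41 with all libraries) and 4005 to 7414 of all genes (6864 with all libraries), the lowest without empty-vector replicate 2. Without either empty-vector replicate, Trdn, Myh3, Myh6, Calr and Micu3 also lost their calls, as did Acta1 without replicate 2, Myh6 with the block (adjusted p = 0.0602) and without the low-count filter (0.139), and Micu3 without overexpressing replicate 1. Of the transport genes of other membranes, 2 rose without empty-vector replicate 2, and 1 of the entry genes did. A group left with 1 library was assumed to vary like the other. The Casq1 share differed by -1.17 percentage points when counts were not divided by length, against -1.62. The cause of these shifts was not tested, beyond the loss of a library.

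With the replicate number as a block, 8 of the 10 genes and 7677 of all genes passed, with no call of the 10 changed. The deviations of same-numbered libraries correlated at r = 0.186 across genes, and the labels do not pair them. Sln and, in the overexpressing libraries, Pvalb are limited by few fragments.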

Other observations

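Of 7 store-operated entry genes 2 fell and 3 rose, where 20.9% and 22.3% of all genes tested did: Stim1, the calcium sensor of the reticulum, had 40.1 and 43.1 CPM in the overexpressing libraries, against 76.2 and 68.0 CPM in the empty-vector libraries (log2 fold change -0.80, adjusted p = 0.000305), and Orai1, its channel, stood at -0.73, while Orai2 stood at 0.45. Stim2 (-0.17) and Saraf (-0.01) did not pass. All 3 IP3 receptor genes passed, Itpr1 and Itpr2 as higher (0.70 and 0.85) and Itpr3 as lower (-0.81).

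In the mitochondrial uniporter complex, Mcu, the pore, had 65.1 and 78.7 CPM in the overexpressing libraries, against 158 and 179 CPM in the empty-vector libraries (log2 fold change -1.23, SE 0.11, adjusted p = 0.000158). Mcub, its inhibitory relative, had 20.5 and 21.7 CPM, against 11.0 and 11.2 CPM (0.92, adjusted p = 0.000349). Micu3, a gatekeeper, stood at 0.43, and Micu2 (-0.04) and Mcur1 (-0.02) did not pass. Among cytosolic calcium-binding genes, Calm2 and Sri rose (0.73 and 0.44), as did Calm3, and Pdcd6 (0.13) did not pass.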
